A study of Mus musculus with 23 samples.

Results

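The 10 genes described here encode the ligands of transforming growth factor beta (TGF-beta), proteins that hold them latent in the matrix, their receptors and a pair of intracellular Smads: Tgfb1, Tgfb2, Tgfb3, Ltbp1, Ltbp3, Tgfbr1, Tgfbr2, Tgfbr3, Smad3 and Smad7. They were taken by symbol from each of 2 count tables, 10 of 15962 genes in a 2-week experiment and 10 of 15762 in a single-bout experiment, and all 10 passed the filter on low counts in both (15576 and 15500 genes tested). The study asked whether L-BAIBA (L-beta-aminoisobutyric acid, a muscle metabolite released with exercise) alters the response of bone to a tibial load too small to build bone by itself. RNA came from cortical bone of the tibia that had been flushed of marrow and digested to enrich osteocytes, the cells embedded in bone matrix. Each of the 23 libraries pooled the same-side tibiae of 2 wild-type C57BL/6 male mice aged 5 months.

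In the 2-week experiment (12 libraries, 3 per group) the right tibia was loaded at 8.25 N in 3 bouts a week for 2 weeks, and in the single-bout experiment (11 libraries) it was loaded in 1 bout at 8.25 N. Mice drank regular water (vehicle) or water that supplied L-BAIBA at 100 mg/kg/day, through the 2 weeks or for 5 days before the single bout, and bone was taken 24 hours after the last bout. Loaded and nonloaded tibiae of vehicle mice and of L-BAIBA mice made 4 groups per experiment, with 3 libraries each except the single-bout L-BAIBA nonloaded group, which had 2. The nonloaded tibia was always the left leg of loaded mice, so side and loading cannot be told apart and no group came from mice that were never loaded. The L-BAIBA and vehicle groups came from different mice, whereas 9 loaded libraries had a nonloaded partner from the same pool of mice.

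TGF-beta is stored in bone matrix in a latent form. Each ligand stays bound to its own propeptide, the propeptide is tied to a latent TGF-beta binding protein (LTBP), and integrins or proteases release the active ligand. The ligand binds the type II receptor (Tgfbr2), which activates the type I receptor (Tgfbr1), and this phosphorylates Smad2 and Smad3. Betaglycan (Tgfbr3) presents ligand to the receptors, and Smad7, itself induced by the pathway, shuts the type I receptor down. In bone the pathway couples resorption to formation and acts on osteocytes and the matrix around them.

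The 2-week libraries held 6368289 to 18318951 counts in genes, and the single-bout libraries, which were deeper, 17811949 to 37562527. The 10 genes had 373 to 12538 counts per 2-week library and 921 to 20052 per single-bout library, so counting error was small beside the differences between libraries. All 10 osteocyte markers listed for this check (among them Dmp1, Phex, Mepe and Sost) were present in both tables with counts in all libraries. Marrow cells were also represented: the neutrophil markers summed to 12186 to 29970 CPM (counts scaled to the library total) in the 2-week libraries and 22613 to 71137 CPM in the single-bout libraries. In such bulk samples, fewer cells of a type and less RNA per cell cannot be told apart.

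Levels were first ordered per length of exon, as TMM-scaled CPM divided by kilobases, in the vehicle nonloaded libraries. In the 2-week experiment Tgfb1 stood highest at 185 ± 10.2 CPM per kb (SD, n = 3), above 98.1% of the genes tested. Ltbp3 followed at 54.6 ± 6.24, Tgfb2 at 48.03 ± 14.9, Tgfbr2 at 43.3 ± 3.28 and Ltbp1 at 32.3 ± 2.499 CPM per kb. The lower levels were Smad7 at 19.5 ± 3.69, Tgfb3 at 14.8 ± 2.71, Smad3 at 14.6 ± 1.20, Tgfbr1 at 14.01 ± 0.745 and Tgfbr3 at 11.2 ± 2.03 CPM per kb. Tgfb1 lay apart from all others, as did Ltbp1 from Tgfbr2 above it and Smad7 below it, whereas the libraries of every other pair of neighbours in this order overlapped. In the single-bout experiment Tgfb1 was again highest at 165 ± 4.88 and Tgfbr3 lowest at 11.4 ± 0.653 CPM per kb (SD, n = 3). Between them came Tgfb2 at 57.8 ± 22.0, Ltbp3 at 39.1 ± 11.8, Tgfbr2 at 36.6 ± 4.86, Ltbp1 at 34.6 ± 10.5, Smad7 at 24.7 ± 6.60, Tgfbr1 at 18.5 ± 1.74, Smad3 at 13.1 ± 0.286 and Tgfb3 at 12.8 ± 2.05 CPM per kb. Here only Tgfb1 and Tgfb2, and Tgfbr1 and Smad3, did not overlap with their neighbour. Among the ligands the order per length was Tgfb1, Tgfb2 and Tgfb3 in both experiments.

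The genes differed in how much they varied. Over the 12 libraries of the 2-week experiment the highest TMM-scaled CPM was 1.69 times the lowest for Tgfbr1, the signalling receptor, and 4.10 times for Smad7, the feedback inhibitor. Over the 11 single-bout libraries it was 1.44 times for Tgfb1 and 4.10 times for Tgfb2.

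The promoters of Tgfb1, Tgfb2, Ltbp1 and Ltbp3 are shown, since the values of these ligands and binding proteins are given in most comparisons. Windows of 300 bases (250 before the start site and 50 from it onward, RefSeq, GRCm38.p6, equivalent to the mm10 build of the counts) were matched by symbol for 7 of the 10 genes (all but Tgfb3, Tgfbr3 and Smad7), 9 windows in all. They are given 5′ to 3′ on the strand of the gene, with the letters of the searched motifs in capitals.
Tgfb1 (chr7:25686752-25687051, + strand): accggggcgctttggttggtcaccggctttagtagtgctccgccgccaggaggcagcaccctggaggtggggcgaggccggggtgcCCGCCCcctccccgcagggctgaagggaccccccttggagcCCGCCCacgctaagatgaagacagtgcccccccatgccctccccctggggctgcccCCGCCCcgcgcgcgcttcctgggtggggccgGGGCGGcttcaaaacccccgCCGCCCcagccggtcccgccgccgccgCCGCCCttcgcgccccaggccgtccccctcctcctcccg
Tgfb2 (chr1:186705940-186706239, - strand): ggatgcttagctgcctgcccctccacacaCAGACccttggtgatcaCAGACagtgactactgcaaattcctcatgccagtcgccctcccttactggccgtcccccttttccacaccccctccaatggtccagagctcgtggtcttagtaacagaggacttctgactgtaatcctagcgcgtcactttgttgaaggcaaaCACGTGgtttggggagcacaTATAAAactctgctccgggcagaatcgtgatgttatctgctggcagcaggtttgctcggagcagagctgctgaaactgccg
Ltbp1 (chr17:75005279-75005578, + strand): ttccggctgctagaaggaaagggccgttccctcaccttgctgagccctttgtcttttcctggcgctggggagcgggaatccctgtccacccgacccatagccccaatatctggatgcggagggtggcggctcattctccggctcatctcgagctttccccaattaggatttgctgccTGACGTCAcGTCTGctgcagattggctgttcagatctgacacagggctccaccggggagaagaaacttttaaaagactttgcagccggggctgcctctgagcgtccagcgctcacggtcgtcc
Ltbp3 (chr19:5740650-5740949, + strand): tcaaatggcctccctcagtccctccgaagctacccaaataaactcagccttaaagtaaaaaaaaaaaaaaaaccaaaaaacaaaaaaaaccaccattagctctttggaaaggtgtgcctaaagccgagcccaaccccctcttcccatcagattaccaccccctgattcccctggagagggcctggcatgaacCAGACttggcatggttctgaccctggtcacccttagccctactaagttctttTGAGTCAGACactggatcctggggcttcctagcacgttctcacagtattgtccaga
Motifs were searched on both strands. The Smad box, which Smad3 binds, was read as CAGAC. The AP-1 site of Fos and Jun proteins was read as TGAGTCA, and the cyclic AMP response element as TGACGTCA. The E-box of helix-loop-helix factors was read as CACGTG, the GC box of Sp1 as GGGCGG, and the TATA motif of the core promoter as TATAAA.

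The Tgfb1 window held 6 GC boxes and none of the other motifs, and GC boxes were in 35.7% of the 32851 promoter windows of the same length. The Tgfb2 window held 2 Smad boxes, an E-box and a TATA motif 31 bases before the start site, and a TATA motif was in 13.6% of all windows. The Ltbp1 window shown, the first of 2 for this gene, held a cyclic AMP response element (in 1.79% of all windows) with a Smad box just after it, whereas the other held 2 Smad boxes and no cyclic AMP response element. For neither of these 2 windows were the bases after the start site found in a reference transcript of Ltbp1, as they were for the windows of the other genes. The Ltbp3 window held 2 Smad boxes and an AP-1 site (in 5.2% of all windows), and this AP-1 site shares its last letters, CA, with the Smad box at the start site. Smad boxes were in 6 of the 9 windows of these genes and in 49.6% of all windows. These are matches of letters and not measured binding.

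Loading alone for 2 weeks went with estimates above 0 for all 10 genes in vehicle mice (51.5% of all genes were above 0), but no gene of the 15576 tested passed an adjusted p of 0.05 (edgeR quasi-likelihood test with Benjamini-Hochberg adjustment), and none of the 10 did by DESeq2 or the likelihood ratio test in any comparison of either experiment. At an unadjusted p under 0.05 there were 8 of the 10 genes (all but Tgfb3 and Tgfbr1), beside 10.2% of all genes tested, and 6.16% of all genes on the higher side. Their smallest adjusted p was 0.475. The median log2 fold change of the 10 genes was 0.66, beside 0.01 over all genes tested. The vehicle loaded libraries lay above all vehicle nonloaded libraries for 4 genes (Ltbp1, Ltbp3, Tgfbr2 and Smad3), as for 8.08% of all genes.

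Among the ligands, Tgfb1 was at 364, 394 and 405 CPM in the vehicle nonloaded libraries and at 641, 728 and 374 CPM in vehicle loaded libraries 1, 2 and 3. Libraries 1 and 2 were thus high and library 3 lay within the nonloaded range. The fitted log2 fold change was 0.58 (SE 0.25, 95% interval 0.04 to 1.13). Tgfb2, the ligand that depends most on betaglycan, was at 160.4, 219 and 301 CPM without and 377, 582 and 283 CPM with loading. Its loaded library 3 again overlapped with the nonloaded libraries, and the log2 fold change was 0.87 (SE 0.32). Tgfb3 was at 41.2, 49.3 and 59.6 CPM without and 69.6, 118 and 48.6 CPM with loading, a log2 fold change of 0.65 (SE 0.31).

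Of the latent binding proteins, Ltbp3, which helps the ligands to be secreted and stored, was at 246, 300.5 and 304 CPM without and 580.5, 755 and 316 CPM with loading. No libraries overlapped, although loaded library 3 was just above the nonloaded ones, and the log2 fold change was 0.96 (SE 0.31, 95% interval 0.28 to 1.63). Ltbp1, which anchors latent ligand to fibrillin and fibronectin in the matrix, was at 245, 259 and 285.2 CPM without and 415, 601 and 285.7 CPM with loading. The gap between the groups was thus under 1 CPM, and the log2 fold change was 0.72 (SE 0.26).

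Of the receptors, Tgfbr2 was at 189, 216 and 216 CPM without and 257, 332 and 263 CPM with loading, a log2 fold change of 0.45 (SE 0.17) with all 3 loaded libraries higher. Tgfbr1 was at 83.9, 75.6 and 78.6 CPM without and 82.2, 113 and 116 CPM with loading. For this gene it was loaded library 1, not library 3, that lay among the nonloaded libraries, and the log2 fold change was 0.39 (SE 0.19). Tgfbr3 was at 81.6, 57.6 and 64.8 CPM without and 95.2, 113 and 72.6 CPM with loading, a log2 fold change of 0.46 (SE 0.21).

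Of the Smads, Smad3, the transducer, was at 78.1, 67.2 and 77.3 CPM without and 112, 158 and 82.2 CPM with loading, with no overlap and a log2 fold change of 0.66 (SE 0.22). Smad7 had the largest estimate of the 10 genes. It was at 104, 72.5 and 82.2 CPM without and 208, 271 and 78.3 CPM with loading, a log2 fold change of 1.10 (SE 0.41, 95% interval 0.23 to 1.98). Loaded library 3 was within the nonloaded range.

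**Figure D1:**
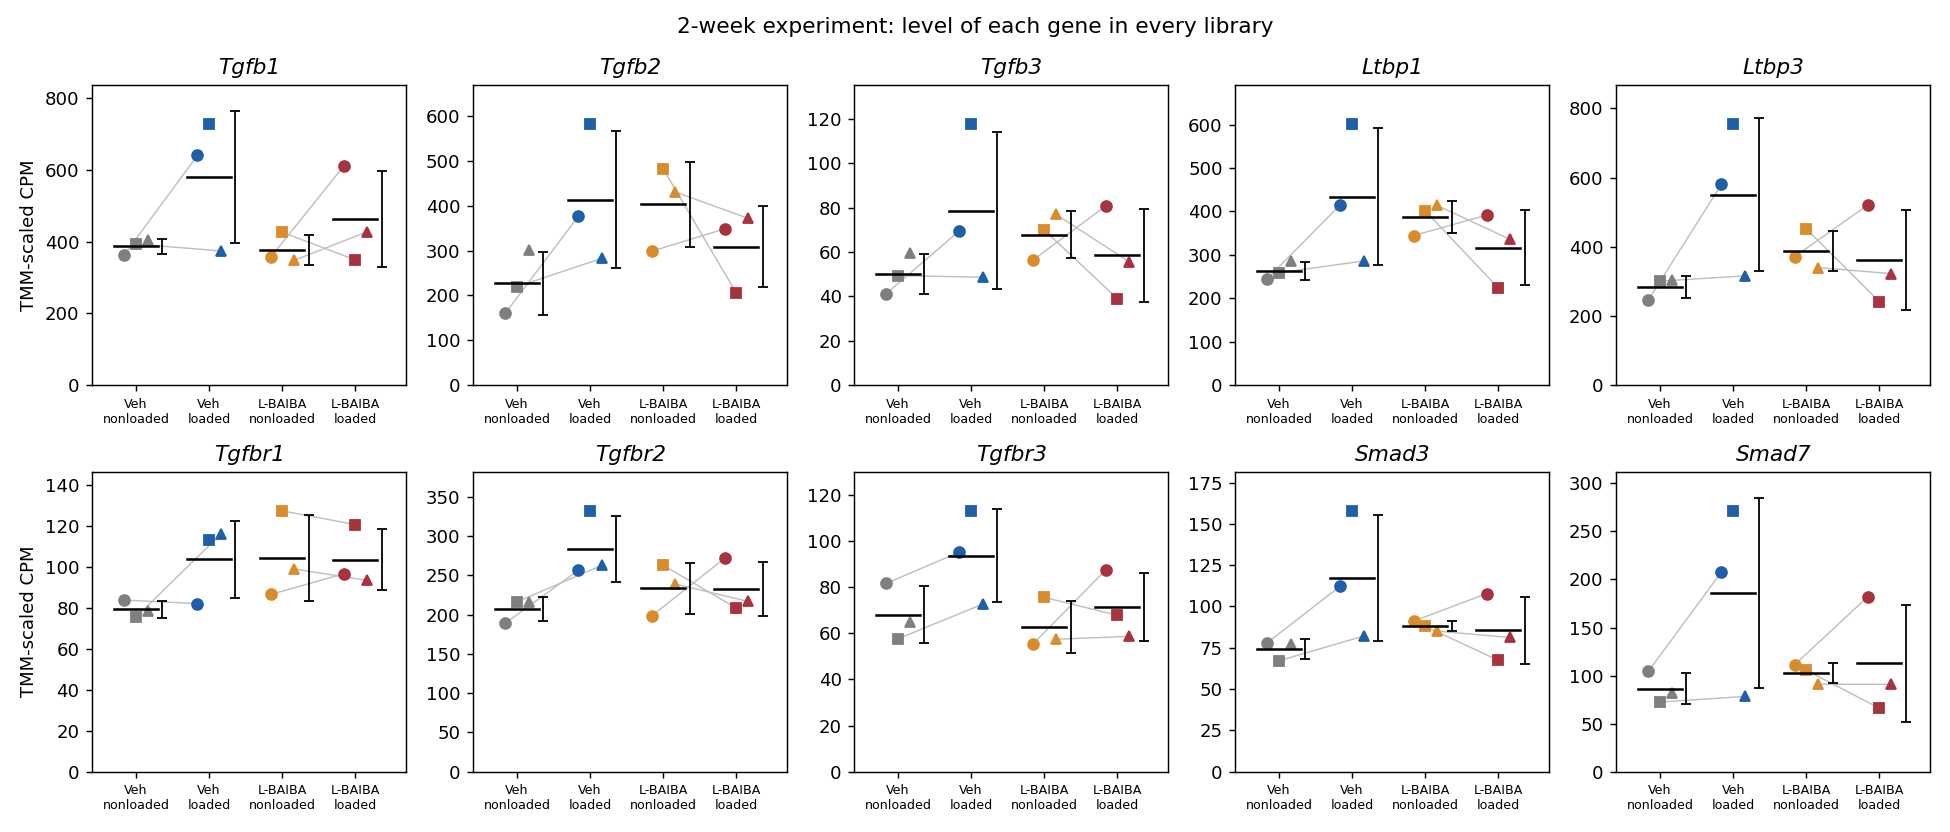
Level of each of the 10 genes in the 2-week experiment, in TMM-scaled CPM (vertical axis from 0), by group (horizontal axis). Circles, squares and triangles are libraries 1, 2 and 3 of a group, horizontal lines are means, bars beside them are ± 1 SD, and grey lines join libraries from the same pool of mice. Vehicle loaded libraries 1 and 2 are high for most genes, whereas vehicle loaded library 3 lies near the nonloaded libraries, for example at 374 CPM for Tgfb1 and 78.3 CPM for Smad7.

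This result rested on single libraries. Without vehicle loaded library 2, none of the 10 genes was at an unadjusted p under 0.05 (2.56% of all genes were) and the median log2 fold change was 0.39. Without vehicle loaded library 3, 9 genes were (15.7% of all genes) and the median was 0.87. With the pool of mice as a fixed block, a fit in which the unpaired libraries vehicle loaded 2 and vehicle nonloaded 3 no longer bear on the estimate, 2 of the 10 genes (Tgfb2 and Smad3) were at an unadjusted p under 0.05, beside 13.5% of all genes, and the median was 0.39. Within pools, the vehicle loaded library 1 exceeded its partner for 9 of 10 genes, by a median ratio of 1.69, and vehicle loaded library 3 exceeded its partner for 8 of 10, by a median ratio of 1.16.

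Several cell type marker lists differed between these groups as well. The 10 osteocyte markers summed to 7971, 8081 and 8538 CPM in the vehicle nonloaded libraries and to 13416, 24639 and 8186 CPM in vehicle loaded libraries 1, 2 and 3, and the 3 loaded libraries had the same order as for the mean of the 10 TGF-beta genes. In the fit of loading alone, 9 of the 10 osteocyte markers were higher (3 at an unadjusted p under 0.05, median log2 fold change 0.72). The paper reports Dmp1 and Phex, both on this list, as upregulated by loading in the same data. The list therefore cannot separate a larger share of osteocytes from a response of its own genes to loading. All 8 neutrophil markers tested were lower (5 at an unadjusted p under 0.05, median -0.53), with sums of 18698 to 29970 CPM without and 12186 to 19369 CPM with loading. All 5 erythroid markers tested were lower as well (median -0.70, sums of 4743 to 5684 against 2315 to 4214 CPM), as were 5 of 6 chondrocyte markers (median -1.31, sums of 482 to 1572 against 287 to 839 CPM). All 6 B lineage markers (median -0.17) and all 5 megakaryocyte markers (median -0.42) had lower estimates, and all 5 endothelial (median 0.39) and all 4 adipocyte markers (median 0.43) higher ones. The 8 osteoblast markers were mixed, with 2 higher and 6 lower (median -0.09), as were the 6 macrophage and osteoclast markers, with 3 in each direction (median 0.01). The part of cell composition in the higher TGF-beta levels was not tested.

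L-BAIBA alone for 2 weeks had estimates above 0 for 8 of the 10 genes (49.5% of all genes), and Tgfb2, Ltbp1 and Ltbp3 had the largest, again with no gene (0% of those tested) at an adjusted p under 0.05, as in all 6 comparisons of each experiment with this test. Tgfb2 was at 298, 482 and 431 CPM in the L-BAIBA nonloaded libraries, against 160.4, 219 and 301 CPM in the vehicle nonloaded libraries. A single pair of values crossed between the groups. The log2 fold change was 0.83 (SE 0.32, 95% interval 0.15 to 1.52, adjusted p = 0.536 in the edgeR quasi-likelihood test), the only one of the 10 genes at an unadjusted p under 0.05. This share was close to the 9.23% of all genes tested that were, and is no result about these genes.

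Ltbp1 was at 344, 401 and 414 CPM after L-BAIBA alone, above all vehicle nonloaded libraries (log2 fold change 0.56, SE 0.26). Ltbp3 at 371, 452 and 339.7 CPM (0.45, SE 0.31), Tgfbr1 at 86.7, 128 and 99.2 CPM (0.40, SE 0.19) and Smad3 at 91.1, 88.1 and 85.1 CPM (0.25, SE 0.22) also lay above all vehicle nonloaded libraries, 4 of the 10 genes beside 8.08% of all genes. Tgfb1 was at 356, 426 and 348 CPM, and its log2 fold change was -0.04 (SE 0.25). The median of the 10 estimates was 0.32, beside -0.00 over all genes. The count of genes at an unadjusted p under 0.05 fell to 0 without any one of vehicle nonloaded library 1 or 2 or L-BAIBA nonloaded library 2 or 3. It was 3 without any one of vehicle loaded library 3, L-BAIBA loaded library 1 or 2 or L-BAIBA nonloaded library 1 (9.01%, 12.2%, 8.91% and 6.85% of all genes), and 2 without vehicle loaded library 1 or 2 or L-BAIBA loaded library 3 (8.12%, 9.47% and 7.87% of all genes). The osteocyte markers summed to 17658, 12239 and 13102 CPM in L-BAIBA nonloaded libraries 1, 2 and 3. All were above the vehicle nonloaded range of 7971 to 8538 CPM. Of the 10 markers 9 had higher estimates (3 at an unadjusted p under 0.05, median log2 fold change 0.70). All 6 B lineage markers were lower (4 at an unadjusted p under 0.05, median -0.59), as were all 5 megakaryocyte markers (3, median -0.65), all 8 neutrophil markers tested (3, median -0.34), all 5 erythroid markers tested (0, median -0.57) and all 6 chondrocyte markers (1, median -1.60), while all 5 endothelial markers were higher (1, median 0.47). The part of these cell types in the result was not tested.

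L-BAIBA and loading together for 2 weeks, against vehicle nonloaded tibiae, gave estimates above 0 for all 10 genes (49.5% of all genes were). Their median was 0.26, but none was at an unadjusted p under 0.05, beside 1.88% of all genes. Only Tgfbr1, at 96.8, 121 and 93.6 CPM, lay above all vehicle nonloaded libraries (log2 fold change 0.39, SE 0.19), beside 3.12% of all genes. L-BAIBA loaded library 1 was high and library 2 low for most genes: Smad7 was at 182, 66.2 and 90.9 CPM in libraries 1, 2 and 3, and Tgfb1 at 610.4, 349 and 428 CPM. Without library 1 the median was -0.00. The osteocyte markers followed the same order, with sums of 18790, 6154 and 10098 CPM in these libraries. In the fit 9 of 10 osteocyte (median 0.41) and all 5 endothelial markers (0.39) were higher. Lower were all 8 neutrophil (-0.33), all 5 erythroid (-0.34), all 6 B lineage (-0.28), all 5 megakaryocyte (-0.25) and all 6 chondrocyte markers (-1.36). The part of these cell types was not tested.

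In loaded tibiae, L-BAIBA went with estimates below 0 for all 10 genes at 2 weeks (48.5% of all genes were above 0). Their median was -0.43 on the log2 scale, with none at an unadjusted p under 0.05, beside 1.5% of all genes. Ltbp3 was at 520.3, 241 and 322 CPM in the L-BAIBA loaded libraries against 580.5, 755 and 316 CPM in the vehicle loaded libraries (-0.61, SE 0.31). Smad7 had the lowest estimate (-0.72, SE 0.40), and Tgfbr1 the one nearest to 0 (-0.00, SE 0.18, 95% interval -0.40 to 0.40). Every gene overlapped between these groups. The count turned on 2 libraries: without L-BAIBA loaded library 1, 8 genes were at an unadjusted p under 0.05 (10.6% of all genes), and without vehicle loaded library 3, 7 genes were (5.49% of all genes). Of the 10 osteocyte markers 8 were lower (median -0.33), as were 7 of 8 osteoblast (-0.21) and all 4 adipocyte markers (-0.82). All 8 neutrophil markers tested (0.31), all 5 erythroid markers tested (0.35) and all 5 megakaryocyte markers (0.15) were higher. The part of these cell types was not tested.

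Within L-BAIBA-treated mice, 2 weeks of loading gave 3 estimates above 0 (51% of all genes) and 7 below. Their median was -0.03 on the log2 scale, with none at an unadjusted p under 0.05, beside 1.68% of all genes. The pools of mice went different ways. L-BAIBA loaded library 1 exceeded its partner for 10 of 10 genes (median ratio 1.39), library 2 was below its partner for 10 of 10 (median ratio 0.696), and library 3 was above for 2 of 10 (median ratio 0.946). Tgfb2, for example, was at 348 CPM loaded and 298 CPM nonloaded in the pool of library 1, at 205 and 482 CPM in that of library 2, and at 372 and 431 CPM in that of library 3. Groups overlapped for all 10 genes.

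The interaction asked whether the log2 fold change with loading differed between L-BAIBA and vehicle mice. At 2 weeks it was below 0 for all 10 genes (49.3% of all genes were above 0), with a median of -0.79 beside -0.01 over all genes. At an unadjusted p under 0.05 were 4 genes, all on the lower side, beside 6.6% of all genes in either direction and 4.13% on the lower side. The 4 genes were Tgfb2 (-1.26, SE 0.45), Ltbp1 (-1.01, SE 0.37), Ltbp3 (-1.06, SE 0.44) and Smad3 (-0.71, SE 0.32), and their adjusted p was 0.724 in the edgeR quasi-likelihood test. Smad7 had a similar estimate with a wider error (-0.97, SE 0.57), whereas those of Tgfb1 (-0.29, SE 0.36) and Tgfbr3 (-0.28, SE 0.30) were smaller than their error. The count was 1 without vehicle loaded library 2 (2.56% of all genes) and 7 without L-BAIBA loaded library 1 (18.2% of all genes). It was 2 without any one of vehicle nonloaded library 1, L-BAIBA loaded library 2 or 3 or L-BAIBA nonloaded library 2 (5.06%, 3.07%, 3.84% and 7.15% of all genes). With the pool as a fixed block it was 3, beside 11.8% of all genes, and the median was -0.52. Below 0 as well were 8 of 10 osteocyte (4 at an unadjusted p under 0.05, median -1.08) and all 5 endothelial markers (median -0.46). Above 0 were all 8 neutrophil (3, median 0.64), all 5 erythroid (1, 0.84), all 5 megakaryocyte (2, 0.78), all 6 B lineage (2, 0.56) and 5 of 6 chondrocyte markers (1, 1.51). The part of these cell types was not tested.

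**Figure D2:**
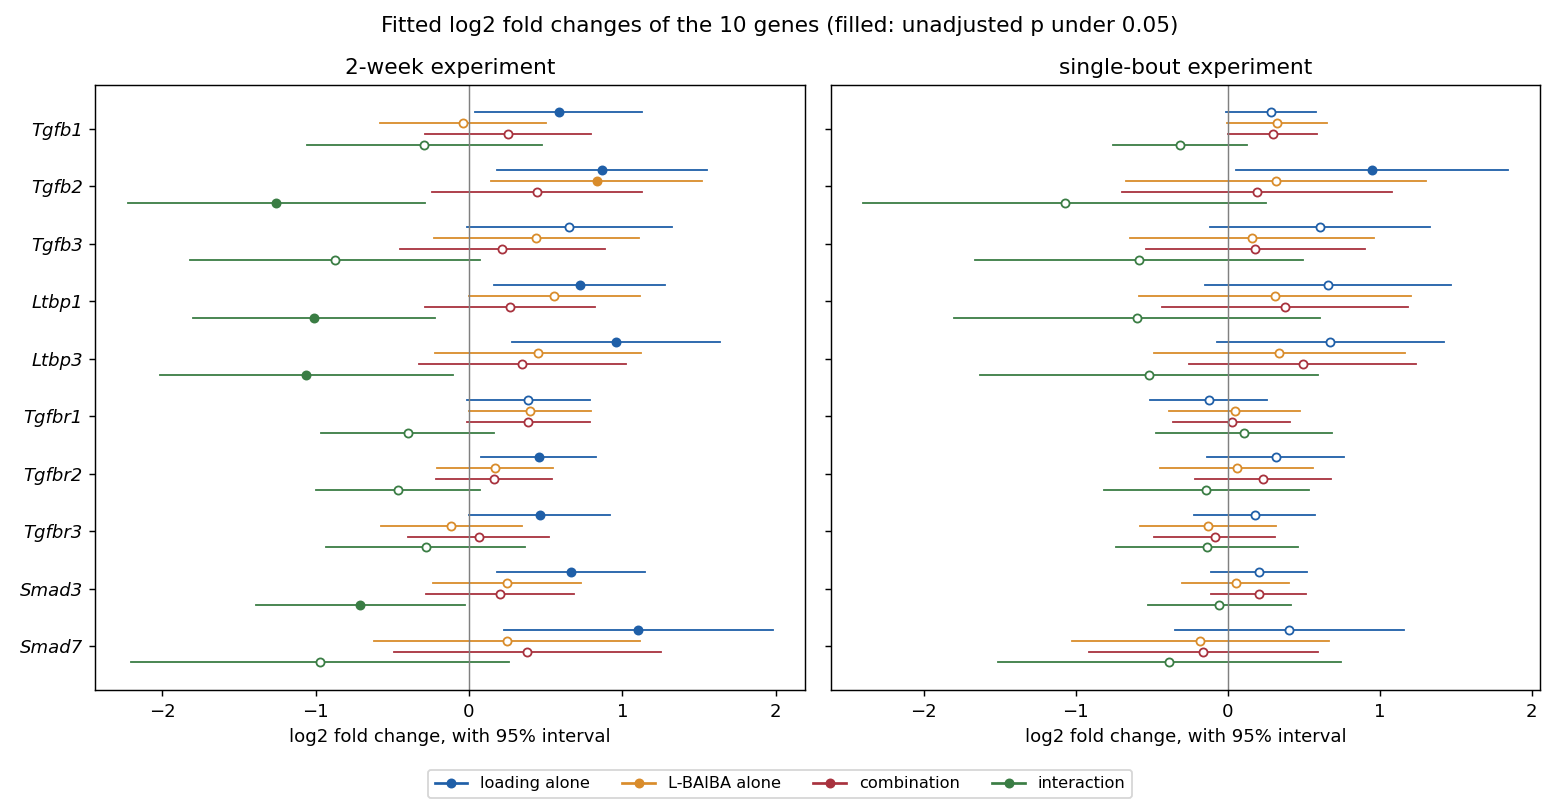
Fitted log2 fold changes of the 10 genes (points) with 95% intervals (lines) in the 2-week experiment (left) and the single-bout experiment (right), for loading alone, L-BAIBA alone, the combination against vehicle nonloaded tibiae, and the interaction of loading and L-BAIBA. Filled points had an unadjusted p under 0.05, and no adjusted p was under 0.05. In the 2-week panel all 10 loading estimates are above 0 and all 10 interaction estimates below 0, with Tgfb2, Ltbp1 and Ltbp3 farthest from 0 in the interaction.

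After a single bout, loading alone gave estimates above 0 for 9 of the 10 genes (55.1% of all genes). Their median was 0.36 on the log2 scale, beside 0.02 over all genes. At an unadjusted p under 0.05 was only Tgfb2, beside 1.19% of all genes. It was at 393, 223 and 204 CPM in the vehicle nonloaded libraries and at 836, 439 and 309 CPM in vehicle loaded libraries 1, 2 and 3, a log2 fold change of 0.95 (SE 0.41, 95% interval 0.05 to 1.84, adjusted p = 1.00 in the edgeR quasi-likelihood test). Loaded library 1 was the highest and loaded library 3 overlapped with the nonloaded libraries.

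The binding proteins again stood next to Tgfb2. Ltbp3 was at 272, 156 and 180.0 CPM without and 441, 308 and 222 CPM with the bout (log2 fold change 0.67, SE 0.34). Ltbp1 was at 380.2, 235 and 230.0 CPM without and 666, 373 and 297 CPM with the bout (0.66, SE 0.37). For both genes vehicle nonloaded library 1 was the highest of its group and overlapped with the loaded libraries.

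Tgfb1 was less spread. At 357, 338 and 342 CPM without and 486, 397 and 381 CPM with the bout, its groups did not overlap (log2 fold change 0.28, SE 0.13). Tgfbr3, at 73.5, 66.1 and 67.4 CPM without and 74.7, 83.5 and 75.5 CPM with the bout, did not overlap either (0.18, SE 0.18), so that 2 of the 10 genes were in this state beside 3.78% of all genes. Tgfb3 (0.61, SE 0.33), Smad7 (0.40, SE 0.34), Tgfbr2 (0.32, SE 0.20) and Smad3 (0.21, SE 0.14) overlapped. Tgfbr1 was the only gene with an estimate below 0, at 105, 114 and 94.6 CPM without and 121, 88.4 and 79.2 CPM with the bout (-0.12, SE 0.17).

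Within pools, vehicle loaded library 1 exceeded its partner for 10 of 10 genes, by a median ratio of 1.92, and vehicle loaded library 2 exceeded its partner for 9 of 10, by a median ratio of 1.34. With the pool as a fixed block, in which the unpaired libraries vehicle loaded 3, vehicle nonloaded 1 and L-BAIBA loaded 1 no longer bear on the estimate, 8 genes were at an unadjusted p under 0.05 (all but Tgfbr1 and Tgfbr3), beside 10.6% of all genes. The estimates were then 1.51 for Tgfb2, 1.14 for Ltbp3, 1.10 for Ltbp1, 0.94 for Tgfb3 and 0.79 for Smad7, and the smallest adjusted p was 0.441 in the edgeR quasi-likelihood test. With the pool as a random block (limma-voom) 6 genes were, Tgfb1, Tgfb2, Tgfb3, Ltbp1, Ltbp3 and Tgfbr2, beside 4.66% of all genes. Without vehicle loaded library 1 the median of the fit without a block was 0.16, and without vehicle loaded library 3 it was 0.51 with 5 genes at an unadjusted p under 0.05 (2.98% of all genes). The count was 3 without L-BAIBA loaded library 3 or vehicle nonloaded library 1 (2.06% and 2.15% of all genes), 2 without L-BAIBA loaded library 2 (1.77% of all genes), and 0 without any one of vehicle nonloaded library 2 or 3 or L-BAIBA nonloaded library 1 or 2. All 10 osteocyte markers were higher in the fit of loading alone (3 at an unadjusted p under 0.05, median log2 fold change 0.78). Their sums were 5322 to 9679 CPM without and 7386 to 18202 CPM with the bout. Lower were all 6 chondrocyte (median -0.96), all 4 adipocyte (-0.60) and 6 of 8 osteoblast markers (-0.26), and all 8 neutrophil markers tested (-0.17). The part of these cell types was not tested.

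**Figure D3:**
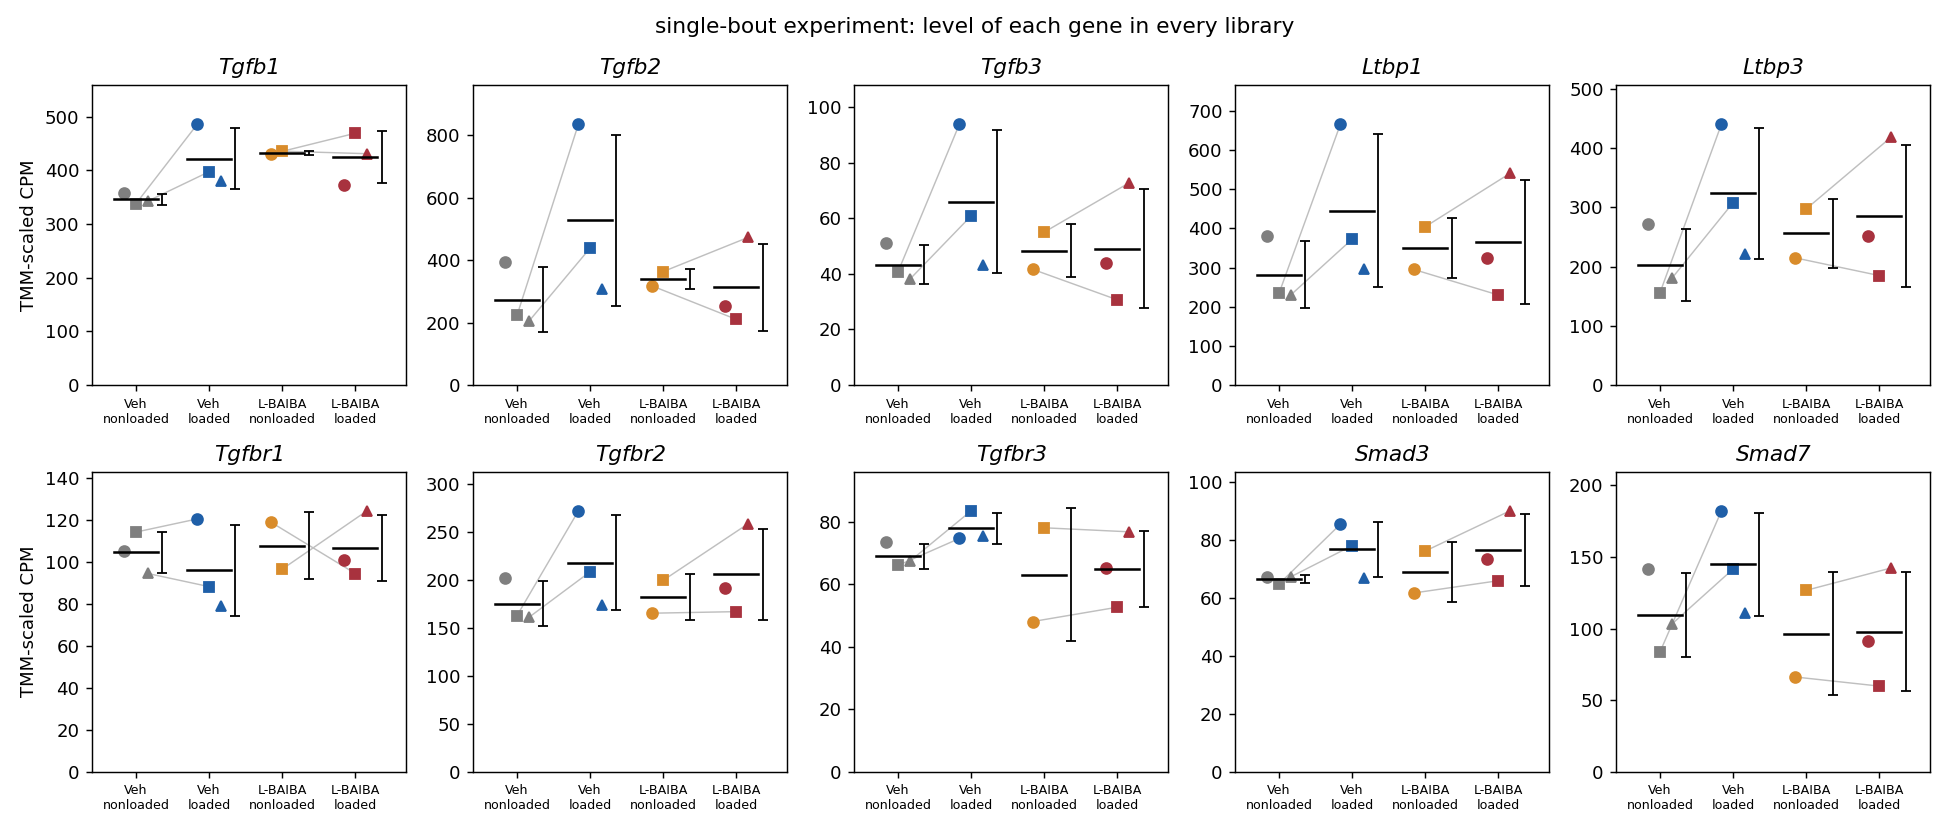
Level of each of the 10 genes in the single-bout experiment, in TMM-scaled CPM (vertical axis from 0), by group (horizontal axis). Circles, squares and triangles are libraries 1, 2 and 3 of a group (2 libraries for L-BAIBA nonloaded), horizontal lines are means, bars beside them are ± 1 SD, and grey lines join libraries from the same pool of mice. Vehicle loaded library 1 and L-BAIBA loaded library 3 are the highest for Tgfb2, at 836 and 473 CPM.

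After 5 days of L-BAIBA without loading, Tgfb1 was at 429.8 and 435 CPM, above all 3 vehicle nonloaded libraries (log2 fold change 0.32, SE 0.15), beside 13.2% of all genes in that state. No other gene of the 10 kept its groups apart, a share close to that of all genes and no result about these genes. None of the 10 was at an unadjusted p under 0.05 (3.68% of all genes were). Of the 10 estimates 8 were above 0 (52.1% of all genes), with a median of 0.11. With 2 libraries in the L-BAIBA nonloaded group the intervals were wide, for example -0.67 to 1.305 for Tgfb2. All 5 megakaryocyte markers (median log2 fold change 0.30), all 8 neutrophil markers tested (0.45) and 9 of 10 osteocyte markers (0.42) had higher estimates. Lower were all 6 B lineage (-1.29), all 6 chondrocyte (-0.96), all 4 adipocyte (-1.43) and 6 of 8 osteoblast markers (-0.69), and all 5 erythroid markers tested (-0.47). The part of these cell types was not tested. The combination against vehicle nonloaded tibiae gave a similar value for Tgfb1, at 373, 469 and 431 CPM (0.29, SE 0.13, no overlap, beside 9.11% of all genes). Tgfb1 was the only one of the 10 without overlap, again a share close to that of all genes and no result about these genes. None of the 10 genes was at an unadjusted p under 0.05 although 16.7% of all genes were. Of the 10 estimates 8 were above 0 (52.3% of all genes), with a median of 0.20. For the combination all 8 neutrophil markers tested (3 at an unadjusted p under 0.05, median 0.69), all 10 osteocyte (0.45) and 4 of 5 megakaryocyte markers (0.11) had higher estimates. Lower were all 5 erythroid markers tested (3, median -0.70), all 6 B lineage (-0.82), 5 of 6 chondrocyte (3, median -1.52) and all 4 adipocyte markers (2, median -1.62). Their part was not tested.

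In tibiae loaded for a single bout, L-BAIBA went with 8 estimates below 0 and 2 above (44.6% of all genes) with a median of -0.22, and none was at an unadjusted p under 0.05 beside 18.9% of all genes. Tgfb2 had the lowest, at 255, 210.2 and 473 CPM against 836, 439 and 309 CPM (-0.76, SE 0.40). Without vehicle loaded library 1 the median turned to 0.15, and without L-BAIBA loaded library 3 it was -0.48 with 3 genes at an unadjusted p under 0.05, beside 22.2% of all genes. Loading within L-BAIBA-treated mice gave 7 of 10 estimates above 0 (49.4% of all genes), a median of 0.03 and none at an unadjusted p under 0.05, beside 3.44% of all genes. L-BAIBA loaded library 2 exceeded its partner for 4 of 10 genes (median ratio 0.881) and library 3 for 8 of 10 (median ratio 1.29).

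The interaction after a single bout was below 0 for 9 of 10 genes (42.4% of all genes were above 0), with a median of -0.35, and none was at an unadjusted p under 0.05, beside 2.01% of all genes. Tgfb2 again had the lowest estimate (-1.07, SE 0.60). With the pool as a fixed block, with the same unpaired libraries set aside, 5 genes were at an unadjusted p under 0.05, beside 8.06% of all genes: Tgfb2 (-1.61), Ltbp1 (-1.07), Ltbp3 (-0.997), Tgfb3 (-0.96) and Smad7 (-0.78). Their adjusted p was 0.571 in the edgeR quasi-likelihood test. All 10 osteocyte markers were below 0 as well in the fit without a block (1 at an unadjusted p under 0.05, median -0.77). Above 0 were 5 of 6 chondrocyte (median 1.02), 6 of 8 osteoblast (0.71) and 7 of 8 neutrophil markers (0.42). The part of these cell types was not tested. The 2 experiments were not tested against each other.

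In both experiments the library with the highest levels of the 10 genes also had the highest osteocyte sum, but not all libraries followed this order. Centred on its mean over the libraries of an experiment and averaged over the 10 genes, the log2 CPM was highest in 2-week vehicle loaded library 2 (0.79), where all 10 genes were above their own mean and the osteocyte markers summed to 24639 CPM. It was lowest in 2-week L-BAIBA loaded library 2 (-0.39), where 1 gene was above its mean and the osteocyte sum was 6154 CPM, also the lowest. The pair of single-bout libraries with the highest TGF-beta levels, vehicle loaded 1 (0.61) and L-BAIBA loaded 3 (0.41), also had the highest osteocyte sums, 18202 and 14427 CPM. L-BAIBA loaded library 3 further stood apart in osteoblast markers (43436 CPM, the other single-bout libraries at 5107 to 23952 CPM) and chondrocyte markers (1391 CPM, the others at 90.3 to 357 CPM). Single-bout L-BAIBA loaded library 2, with the lowest TGF-beta levels of that experiment (-0.38), had the highest neutrophil sum, 71137 CPM. An exception was 2-week L-BAIBA nonloaded library 1, with an osteocyte sum of 17658 CPM and TGF-beta levels just under the mean (-0.12). Within that group the order was reversed, with sums of 13102 and 12239 CPM and levels of 8.2e-05 and 0.18 in libraries 3 and 2. The lowest single-bout osteocyte sum was in vehicle nonloaded library 3 (5322 CPM, level -0.30), not in L-BAIBA loaded library 2 (6316 CPM). The relation was not particular to osteocyte markers. At 2 weeks the endothelial markers summed to 843 CPM in vehicle loaded library 2, 984 CPM in L-BAIBA loaded library 1 and 511 CPM, the lowest, in L-BAIBA loaded library 2. Erythroid sums went the other way, with 2315, 2118 and 5651 CPM in these libraries. These points share library depth and scaling, so the relation is a description. The osteocyte list also holds Dmp1 and Phex, which the paper reports as upregulated by loading, so its sum is not a measure of cell share alone.

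**Figure D4:**
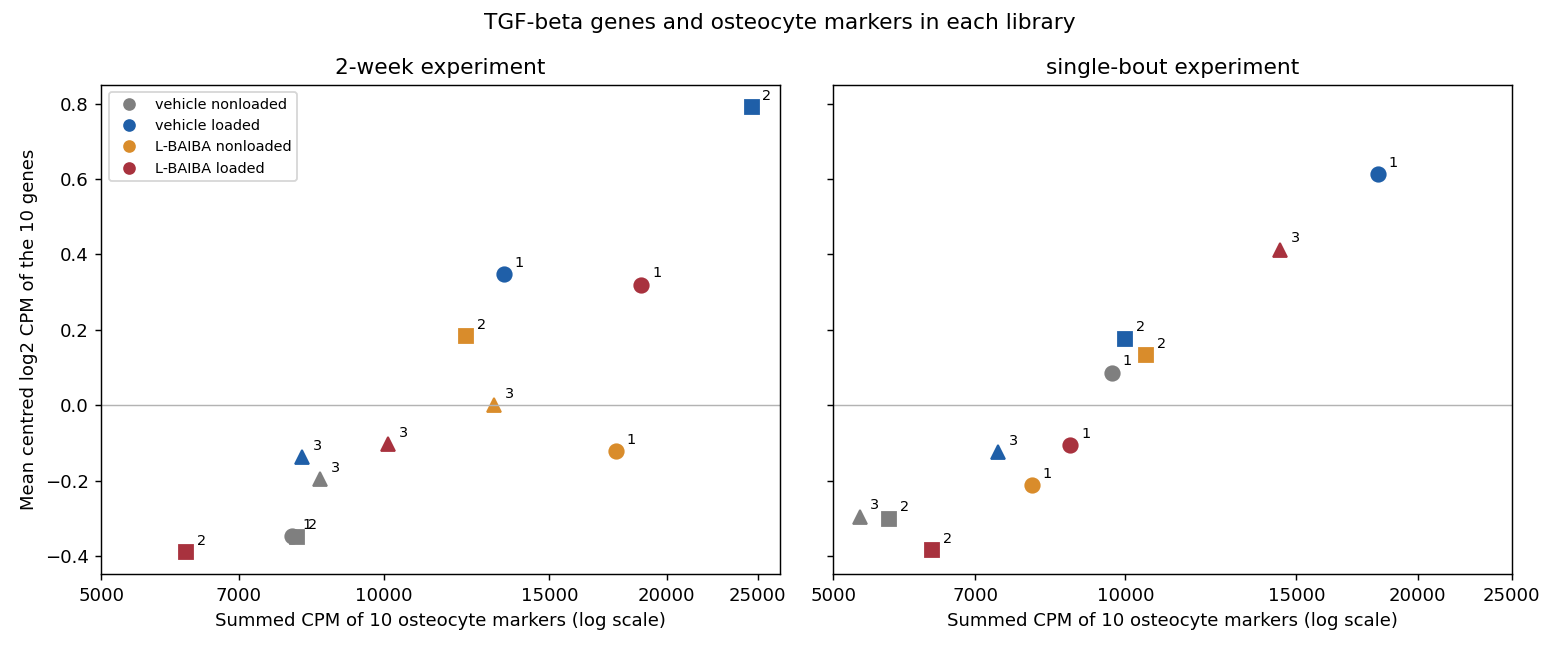
Mean centred log2 CPM of the 10 TGF-beta genes (vertical axis) against the summed CPM of 10 osteocyte markers (horizontal axis, log scale) in each library of the 2-week experiment (left) and the single-bout experiment (right). Colours give the group, and shapes and the digit beside each point give the library number. The libraries with the highest osteocyte sums, 24639 CPM at 2 weeks and 18202 CPM after a single bout, are also those with the highest TGF-beta levels.

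The genes outside the 10 whose profile was nearest to theirs, by the root mean square difference of centred log2 CPM, were Slit2 (0.057), Sash1 (0.061), Ncam1 (0.076), Dag1 (0.087) and Mllt4 (0.089) over the 12 libraries of the 2-week experiment. Over the 11 single-bout libraries they were Tns2 (0.048), Iqsec2 (0.062), Evc2 (0.074), Zbtb4 (0.075) and Cpt1c (0.075). Among the 10 genes themselves the nearest to the mean profile was Smad3 at 2 weeks (0.092) and Tgfbr2 after a single bout (0.081), and the farthest were Tgfbr1 (0.35) and Tgfb2 (0.30).

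Other genes of the pathway were read from 3 lists. Of 25 genes for latency, activation and co-receptors, 19 had higher estimates after 2 weeks of loading alone beside 51.5% of all genes, and 5 of them were at an unadjusted p under 0.05, none lower (median 0.21 on the log2 scale). Over all genes 10.2% were at an unadjusted p under 0.05, and 6.16% on the higher side. Those with the smallest p were Itgb8 (1.75, SE 0.38), the integrin subunit that with Itgav (0.68, SE 0.22) releases latent TGF-beta, Ltbp2 (0.77, SE 0.28), an LTBP that does not bind the ligand, and the membrane protease Mmp14 (0.81, SE 0.33). Of 20 transducers and inhibitors, 14 were higher and 4 were at an unadjusted p under 0.05 (median 0.21): Pmepa1 (1.25, SE 0.46), a TGF-beta-induced inhibitor of Smad signalling, the Smad corepressor Ski (0.79, SE 0.28), the ubiquitin ligase Smurf1 (0.56, SE 0.23) and the inhibitory Smad6 (0.59, SE 0.26). Of 24 genes known to be induced by TGF-beta in mesenchymal cells, 20 were higher (median 0.63), and 2 were at an unadjusted p under 0.05, a share close to that of all genes, with Snai1 (0.89, SE 0.37) among them. All genes named here had an adjusted p of 0.475 in the edgeR quasi-likelihood test.

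In the 2-week interaction, 20 of 25 latency genes were below 0 and 4 were at an unadjusted p under 0.05 (6.6% of all genes, 4.13% on the lower side), all lower: Itgb8 (-2.41, SE 0.53), Fbn2 (-0.79, SE 0.31), the pseudoreceptor Bambi (-0.78, SE 0.34) and Itgav (-0.67, SE 0.31). Of the 24 induced genes 20 were below 0, with a median of -0.71, and 2 were at an unadjusted p under 0.05, Wisp1 (-0.95, SE 0.41) among them. None of the 20 transducers was, Smad6 having the smallest p (-0.69, SE 0.36). Itgb8 also had the smallest p of its list for L-BAIBA alone (1.63, SE 0.39) and for the combination (0.97, SE 0.39). It was in each the only latency gene at an unadjusted p under 0.05, beside 9.23% and 1.88% of all genes. For L-BAIBA alone the induced gene Postn (0.85, SE 0.35) was the only one of its 24, beside 9.23% of all genes, and Zfyve9 had the smallest p of the transducers (0.34, SE 0.20). For the combination no gene of the other lists was, and Pmepa1 (0.83, SE 0.46) had the smallest p of the transducers. For L-BAIBA in loaded tibiae, Fbn2 (-0.53, SE 0.22) was the only gene of the 3 lists at an unadjusted p under 0.05, beside 1.5% of all genes. For loading within L-BAIBA-treated mice, Bambi (-0.60, SE 0.24) was again the only one, beside 1.68% of all genes. Over the 3 lists together both shares were close to those of all genes and are no result about these genes. The smallest p of the other lists belonged to Sphk1 (-0.38, SE 0.23) and Smad6 (-0.51, SE 0.26) in the former comparison and to Postn (-0.70, SE 0.35) and Nedd4l (0.27, SE 0.16) in the latter.

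After a single bout, the medians of the lists with loading alone were 0.07, 0.06 and 0.15 for latency genes, transducers and induced genes. Only Fn1 (-0.53, SE 0.17), the matrix protein fibronectin, was at an unadjusted p under 0.05, beside 1.19% of all genes. Bambi (0.77, SE 0.41) and Pmepa1 (0.53, SE 0.34) had the smallest p of the other lists. In the interaction Fn1 was again the only one, on the higher side (0.73, SE 0.26), beside 2.01% of all genes. It was followed in the other lists by Mmp2 (1.16, SE 0.75) and Pmepa1 (-0.46, SE 0.50). For L-BAIBA alone Thbs1 (-0.99, SE 0.35) and Dcn (-1.24, SE 0.52), an activator and a binder of TGF-beta, and Smurf1 (0.31, SE 0.13) were at an unadjusted p under 0.05, beside 3.68% of all genes. Tgfbi (0.47, SE 0.23) had the smallest p of the induced genes. Over the 3 lists together, the shares for loading alone, the interaction and L-BAIBA alone were close to those of all genes and are no result about these genes. The combination had 3 latency genes, 2 transducers and 3 induced genes at an unadjusted p under 0.05, all higher, beside 16.7% of all genes in either direction: Furin (0.41, SE 0.12), the protease that cuts the ligand from its propeptide, Mmp9 (0.83, SE 0.26), Emilin1 (0.41, SE 0.17), Smurf1 (0.40, SE 0.11), the Smad phosphatase Ppm1a (0.26, SE 0.10), Tgfbi (0.72, SE 0.21), Junb (0.49, SE 0.21) and Snai1 (0.38, SE 0.16). Their smallest adjusted p was 0.233 in the edgeR quasi-likelihood test. On the higher side were 1094 of the 15500 genes tested. Over the 3 lists together, the share in either direction was below that of all genes and is no result about these genes. In loaded tibiae L-BAIBA went with higher Furin (0.44, SE 0.12), Mmp9 (0.93, SE 0.26), Smurf1 (0.30, SE 0.11), Tgfbi (0.94, SE 0.21) and Fn1 (0.42, SE 0.17), 5 genes of the 3 lists at an unadjusted p under 0.05, beside 18.9% of all genes. Their smallest adjusted p was 0.170 in the edgeR quasi-likelihood test. On the higher side were 1372 of the 15500 genes tested. This share of the 3 lists together was not above that of all genes either, and is no result about these genes. In the same comparison all 8 neutrophil markers tested were higher (5 at an unadjusted p under 0.05, median log2 fold change 0.91), with sums of 30049 to 71137 CPM against 22613 to 25121 CPM, and Mmp9 is a gene of neutrophils and osteoclasts as well. Their part in these values was not tested. Loading within L-BAIBA-treated mice had no gene of the 3 lists at an unadjusted p under 0.05, the smallest p being those of Nox4 (-0.89, SE 0.47), Mmp9 (0.48, SE 0.29) and Tgif1 (0.28, SE 0.24).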

How the data were processed

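Poly(A) RNA libraries were aligned by the authors to mm10 with STAR 2.5.2b, and uniquely mapped fragments were counted per refSeq gene with featureCounts (Subread 1.5.1, reverse-stranded, paired, mapping quality of at least 10). The deposited values used were these raw counts and the deposited exon length in bases, which is neither a score nor normalized. The authors kept genes by CPM over 0.5. The 12 deposited blocks of the authors' own fold changes and p-values, and 23 normalized per-sample columns, were not used.

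Here the filter was a CPM above 0.5 in 4 or more libraries, scaling was by TMM, and each experiment had 1 fit over its 4 groups (edgeR 4.0.16 quasi-likelihood F test, R 4.3.3), with Benjamini-Hochberg adjustment over all genes tested. Standard errors came from the fit and intervals are 95%. "Unadjusted p" is the p of that test before adjustment. P-values of this fit measure the spread between libraries, each a pool of 2 mice. The fit takes loaded and nonloaded libraries of the same pool as independent. Libraries of the same pool, named in the sample titles, come from the same mice. Their deviations from group means correlated at 0.156 to 0.563 over genes in the 9 pairs, so the pool pairs the samples. Alternatives were RLE scaling, no filter, DESeq2 1.42.0, the likelihood ratio test, only the groups compared, the pool as a random block (limma 3.58.1, voom, correlation 0.441 and 0.406) or as a fixed block, and leaving out each library. Tests of loading alone, except the fixed block, were checked on simulated data. The simulated libraries were drawn independently of each other, so this check does not bear on libraries that share a pool.

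All 10 genes were named. From each pathway list up to 4 genes per comparison were named, by smallest unadjusted p among those under 0.05, otherwise the 1 with the smallest p, and 5 genes per experiment by likeness of profile. The genes and lists were chosen with earlier results of these data known. A gene that the rule would name is not reported here.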

Additional observations from a re-analysis of the deposited data

How the results depend on the processing

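No value of the 10 genes that had an unadjusted p under 0.05 changed sign under an alternative, and no alternative brought any of them to an adjusted p under 0.05. Over 2140 values of single genes under alternatives, 57 lost and 116 gained an unadjusted p under 0.05, and 111 changed sign without being under it in either fit. The number of the 10 genes at an unadjusted p under 0.05 moved as follows, and the cause was not tested. For 2-week loading alone (8 genes) it was 10 with DESeq2 and with only the groups compared, 9 with the likelihood ratio test and 7 with no filter. For 2-week L-BAIBA alone (1 gene) it was 3 with RLE scaling, with no filter and with DESeq2, 2 with the likelihood ratio test and 5 with only the groups compared. For the 2-week combination (0) it was 1 with RLE scaling, DESeq2 and only the groups compared. For the single-bout combination (0) it was 1 with RLE scaling, no filter, DESeq2 and the random block. It was 2 for single-bout loading alone (1) and 1 for single-bout L-BAIBA alone (0) with DESeq2 and with only the groups compared.

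With the pool of mice as a block, the count for 2-week loading alone was 8 (random) and 2 (fixed), beside 19.1% and 13.5% of all genes and 10.2% without a block. For single-bout loading alone it was 6 and 8 (4.66% and 10.6%, against 1.19%), for the 2-week interaction 5 and 3 (16.1% and 11.8%, against 6.6%), and for the single-bout interaction 1 and 5 (5.47% and 8.06%, against 2.01%). The fixed block takes no estimate of loading from the unpaired libraries.

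Leaving out each library in turn, the count ranged from 0 to 9 for 2-week loading alone, 0 to 3 for L-BAIBA alone, 0 to 1 for the combination, 0 to 8 for L-BAIBA in loaded tibiae and 1 to 7 for the interaction. In the single-bout experiment it ranged from 0 to 5 for loading alone, 0 to 1 for L-BAIBA alone and for the combination, 0 to 3 for L-BAIBA in loaded tibiae and 0 to 2 for the interaction. The median log2 fold change ranged from -0.34 to 0.069 for 2-week loading within L-BAIBA, from -1.06 to -0.45 for the 2-week interaction and from -0.48 to 0.15 for single-bout L-BAIBA in loaded tibiae. With 2 or 3 libraries a group, these comparisons rest on few libraries, and the part of read depth in the changes was not tested.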
